A study of Caenorhabditis elegans with 4 samples.

Results

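The peaks described here are the stretches of chromosome III at which chromatin immunoprecipitation and sequencing (ChIP-seq) placed TBP-1, the TATA-binding protein of the worm Caenorhabditis elegans. Members were all rows of the deposited whole-series peak list that name chromosome III, 650 of 4214 peaks. The lists of the 2 ChIP replicates held 257 peaks on III of 1685 and 403 of 2660. Chromatin came from embryos of the wild-type strain N2, the usual laboratory strain, at mixed embryonic stages, from a population of males and hermaphrodites kept at 20 °C. The 2 TBP-1 samples were precipitated with antibody SDQ0839 against TBP-1, and the 2 input samples were chromatin DNA taken before precipitation. Each sample pools many embryos from liquid culture, so a peak is an average over stages and cell types. Whether the replicates came from separate cultures is not in the labels, so their spread may be technical. Peaks of the input libraries were not analysed here.

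TBP-1 is a general transcription factor. It recognises TATA elements as the DNA-binding subunit of TFIID at promoters of RNA polymerase II, and it is also part of the factors that recruit RNA polymerases I and III, so its sites mark where transcription can start. Chromosomes of C. elegans are holocentric and have no single centromere. Each autosome has a gene-dense centre with little recombination and 2 arms with more repeats and more recombination. The chromosome's middle 50% of length is called the centre here, and the outermost 25% on each side are called the left and right arm. Positions are on WormBase WS220, per the file headers. No sequence is printed and no gene is assigned to a peak, because a genome and annotation of that build were not used here.

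Chromosome III was denser in peaks than the other autosomes as a group. It was chosen with its surplus of peaks already known, so the density tests, also those against single autosomes, describe that surplus. They are no independent support for it. In the series list chromosome III held 47.2 peaks per Mb, against 38.0 per Mb on chromosomes I, II, IV and V. Replicate 1 had 18.6 per Mb on III and 15.3 on the others, and replicate 2 had 29.2 on III and 23.7 on the others. Taken as windows of 500 kb, which let clustering of peaks enter the error, the density ratio of III over the others was 1.25 in the series list (95% interval 1.10 to 1.43), 1.23 in replicate 1 (0.997 to 1.51) and 1.23 in replicate 2 (1.08 to 1.41). The ratio passed a negative binomial regression over 28 windows of III and 139 of the other autosomes in the series list (adjusted p = 0.0027) and in replicate 2 (adjusted p = 0.0036). In the list of the first replicate it missed the threshold (adjusted p = 0.054, negative binomial regression over the same windows). Windows are the units in the density regressions, so the spread between chromosomes does not enter the error, and III is 1 chromosome against 4. With the 5 autosomes as units, no rank test could give a p under 0.2. At the density of the other autosomes III would have held 523 series-list peaks, 210.5 replicate 1 peaks and 326.7 replicate 2 peaks. The surplus was thus 126.7, 46.5 and 76.3 peaks in that order.

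Against single autosomes the ratio ran from 1.07 to 1.45 in the series list. Chromosome I was the nearest, with 44.5 series-list peaks per Mb, and the ratio of III over I was 1.07 (95% interval 0.92 to 1.24, negative binomial regression, adjusted p = 0.42 over 12 pairwise tests). The ratio over V, which had 32.8 peaks per Mb, was the largest of the 4 at 1.45 (1.24 to 1.70), with an adjusted p of 8.0e-05 in the same regression. Against II the regression gave 1.29 (1.08 to 1.53), with an adjusted p of 0.020, and against IV it gave 1.21 (1.04 to 1.41), with an adjusted p of 0.043. In replicate 2 the calls over V (ratio 1.49) and II (ratio 1.24) passed, and those over IV (1.15) and I (1.06) did not. In replicate 1 none of the 4 pairs passed, with ratios of 1.15 to 1.32. With V left out of the other autosomes the replicate 2 ratio was 1.15 and its call was lost, at an adjusted p of 0.068. For series-list peaks found in both replicates the ratio was 1.18 and the call was lost, at an adjusted p of 0.14. With chromosome X, the densest at 53.2 series-list peaks per Mb, added to the other autosomes, the ratio was 1.16 in the series list and 1.12 in replicate 2, and neither passed (adjusted p of 0.11 and 0.18).

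**Figure D1:**
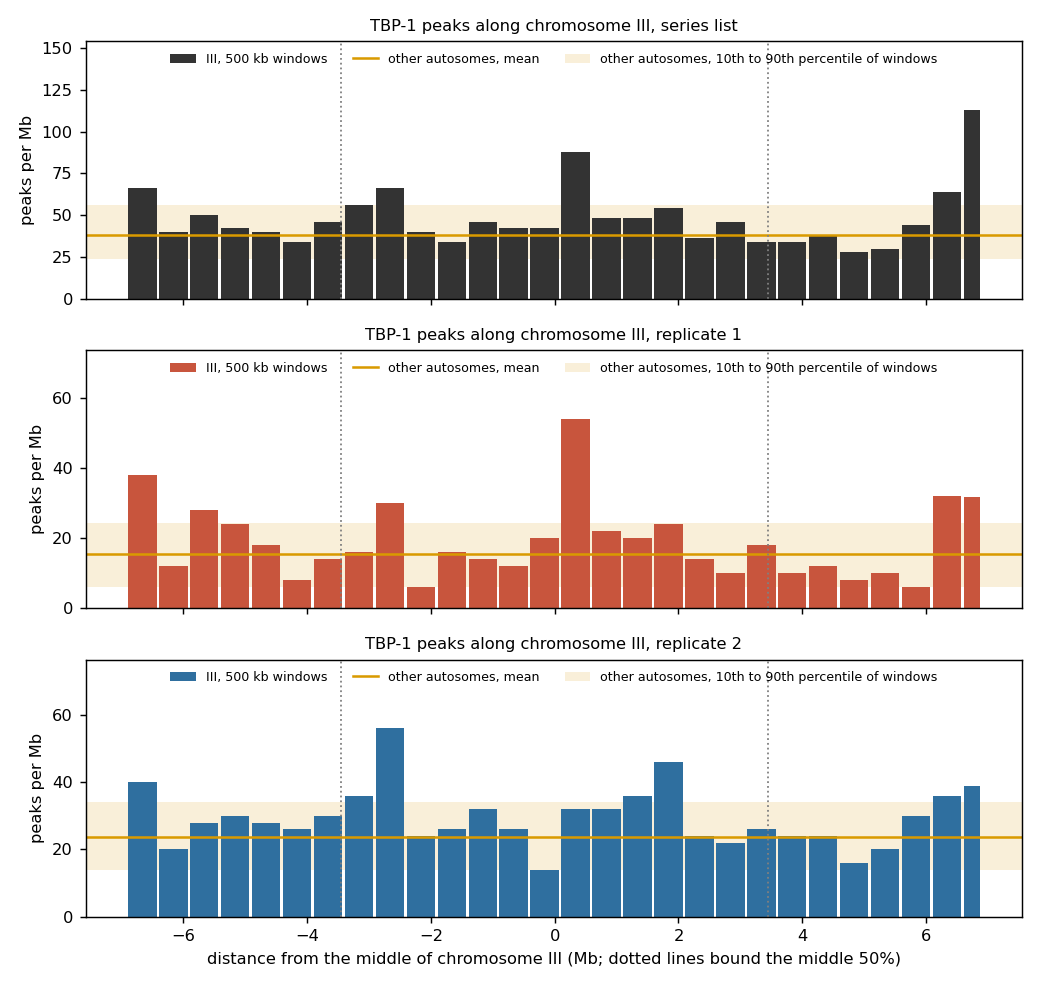
Bars give TBP-1 peaks per Mb in 500 kb windows of chromosome III, by distance from the chromosome's middle in Mb, in the series list, replicate 1 and replicate 2. The line is the mean of the other autosomes and the band spans the 10th to 90th percentile of their windows. In the series list the tallest bars are the last, shorter window, with 112.8 peaks per Mb, and the window just right of the middle, with 88 per Mb.

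In the series list the density of III was above that of the other autosomes pooled on both arms and in the centre. The intervals on the arms included 1. Series-list density was 45.4 per Mb on the left arm of III and 35.1 on the left arms of the other autosomes (ratio 1.29, 95% interval 0.99 to 1.68). In the centre it was 48.6 on III and 38.7 on the others (ratio 1.25, 1.05 to 1.51), and on the right arm 46.0 and 39.4 (ratio 1.21, 0.93 to 1.58). Counted in peaks, these parts gave surpluses of 36, 69.1 and 21.7. Chromosome I alone came close to III, with 44.75 per Mb on the left arm, 44.4 in the centre and 44.5 on the right arm. The left arms of V and II were the sparsest, with 25.4 and 31.5 per Mb. In replicate 1 the ratios were 1.60 (1.07 to 2.38) on the left arm, 1.31 (0.99 to 1.74) in the centre and 0.82 (0.54 to 1.25) on the right arm. In replicate 2 they were 1.41 (1.09 to 1.83), 1.27 (1.06 to 1.52) and 1.02 (0.78 to 1.34). The right arm of III had 26.2 replicate 2 peaks per Mb, against 27.2 on I, 27.8 on II, 29.4 on IV and 20.5 on V. A difference in ratio between the parts did not pass in any list (likelihood ratio test of the interaction in the negative binomial regression, adjusted p = 0.95 in the series list, 0.22 in replicate 1 and 0.34 in replicate 2). With a narrower centre, the middle part of 3 equal ones, it passed in both replicates (adjusted p = 0.038 in each, negative binomial regression) and not in the series list (adjusted p = 0.45). The replicate 1 ratios were then 1.62, 1.41 and 0.82, and those of replicate 2 were 1.55, 1.22 and 1.00.

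Among the stronger peaks the surplus over the same parts of the other autosomes was unequal along III. The stronger 50% of each list by score gave 27.4 series-list peaks per Mb on the left arm of III and 15.4 on the other left arms (ratio 1.78, 95% interval 1.32 to 2.42), 24.3 and 18.8 in the centre (ratio 1.29, 1.04 to 1.61), and 19.2 and 22.2 on the right arm (ratio 0.87, 0.63 to 1.22). The same order was seen in replicate 1, with ratios of 1.65, 1.03 and 0.51, and in replicate 2, with 1.94, 1.27 and 0.77. For these peaks the interaction passed in all 3 lists (negative binomial regression, adjusted p = 0.014 in the series list, 0.019 in replicate 1 and 0.0099 in replicate 2). Most replicate peaks recur in the series list, so these are not 3 independent tests. Arms were matched by side, and the other right arms were denser than the other left arms (22.2 and 15.4 per Mb in the series list). The arm ratios and the interaction therefore depend on that matching, and III was not compared with all other arms pooled. Over the whole of III the replicate 1 ratio for the stronger peaks was 0.98, and the list's weaker 50% had 11.0 peaks per Mb on III and 7.52 on the other autosomes (ratio 1.48, 1.16 to 1.89).

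The left arm of III ranked high among the 10 autosomal arms for these stronger peaks. It was the first of 10 in the series list, with 96 peaks, the second in replicate 2, with 59, and the fourth in replicate 1, with 30. The right arm of III was the sixth of 10 in the series list, the seventh in replicate 2 and the eighth in replicate 1. The other left arms ran from 10.2 per Mb on V to 20.0 per Mb on IV in the series list, and the other right arms ran from 17.5 on V to 26.2 on II. The weaker 50% of the series list, a split added after the stronger one was seen, had ratios of 0.91 on the left arm, 1.22 in the centre and 1.63 on the right arm. In replicate 2 its ratios were 1.02, 1.26 and 1.35. Replicate 1 had another order, with 1.56, 1.65 and 1.14. The interaction for the weaker peaks did not pass in any list (negative binomial regression, adjusted p = 0.19 in the series list and 0.49 in each replicate).

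**Figure D2:**
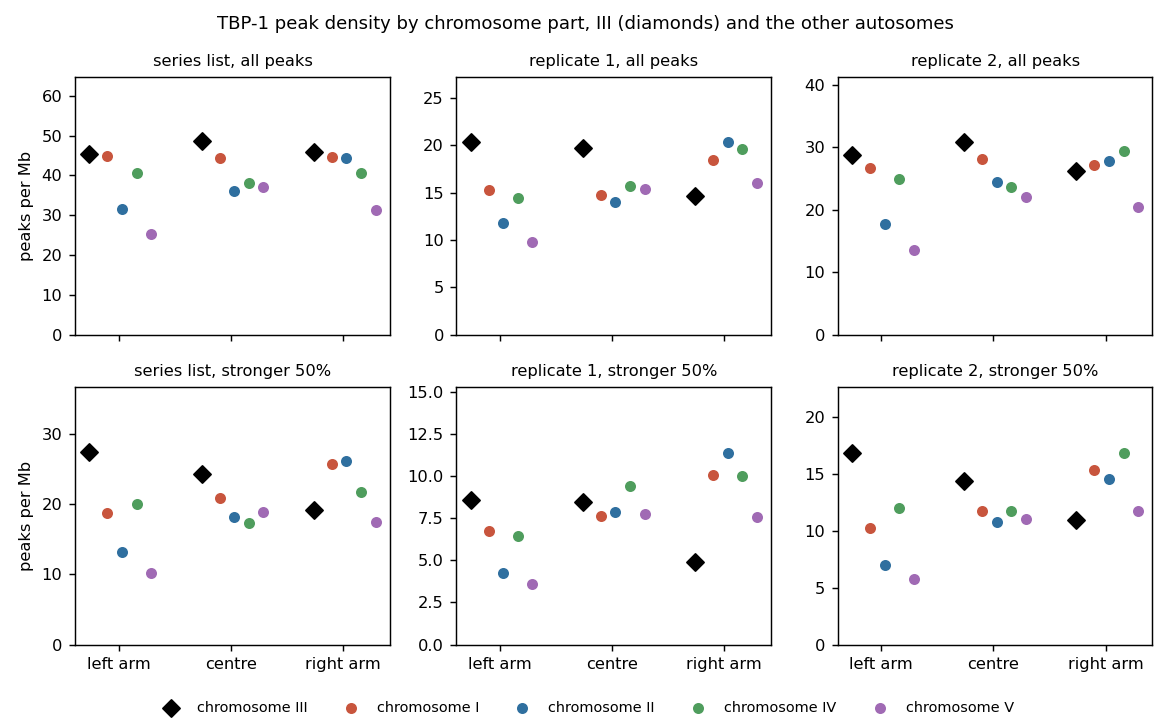
Each point is the TBP-1 peak density of 1 chromosome part in peaks per Mb, with chromosome III as diamonds and chromosomes I, II, IV and V as circles, for all peaks (upper row) and the stronger 50% by score (lower row) in the 3 lists. Among the stronger series-list peaks III goes down from 27.4 per Mb on the left arm to 19.2 on the right arm, while I, II, IV and V each have more on the right arm than on the left.

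Window counts showed a raised level over much of III, against the other autosomes pooled, in the series list and replicate 2, and a few full windows. This level was not particular to III. Chromosome I had 44.5 peaks per Mb in the series list and 27.5 in replicate 2, beside 47.2 and 29.2 on III. In the series list the 27 complete windows of III held 14 to 44 peaks with a median of 21, and the 135 of the other autosomes held 8 to 39 with a median of 18. Of the 27, 20 lay above that other median, as did 66 of the 135. In replicate 2 the median was 14 on III (range 7 to 28) and 11 on the others (2 to 22). Above the latter lay 22 of 27 and 67 of 135 windows. In replicate 1 the medians were 8 and 8, with ranges of 3 to 27 on III and 1 to 23 on the others. Above 8 lay 12 of 27 windows of III and 50 of 135 of the others. Across these 27 windows the counts of the replicates had a Pearson r of 0.52 and a Spearman rho of 0.66, a description of lists that share a chromosome and a peak caller.

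With a negative binomial distribution fitted to all autosomal windows, 0 of the 28 windows of III and 0 of 167 autosomal windows (0%) passed the adjusted threshold in each of the 3 lists. At an unadjusted p under 0.05, 2 windows of III were high in each list, and 3, 3 and 0 windows of the other autosomes were high in the series list, replicate 1 and replicate 2. With a Poisson distribution, which gives no room to clustering, 5 of 167 autosomal windows (2.99%) passed in the series list, 2 of them on III, and 5 of 167 (2.99%) in replicate 1, again 2 of them on III. In replicate 2 the 1 window that passed (0.599%) was on III. With windows of 250 kb and the negative binomial distribution, 1 of 333 autosomal windows (0.3%) passed in replicate 1, at 7.25 to 7.5 Mb of III, and 0 in the other lists. With the Poisson distribution the window at 7 to 7.5 Mb was among those that passed in the series list and in replicate 1. That window was named for its count, so these calls inside it are a description.

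The fullest complete windows of III in the series list were 7 to 7.5 Mb with 44 peaks, 0 to 0.5 Mb with 33 and 4 to 4.5 Mb with 33. Replicate 1 had 27, 19 and 15 peaks in them, and replicate 2 had 16, 20 and 28. The window at 4 to 4.5 Mb was thus the fullest of all autosomal windows in replicate 2, and the window at 7 to 7.5 Mb was the fullest in replicate 1 and in the series list. The emptiest were 11.5 to 12 Mb with 14 series-list peaks, 12 to 12.5 Mb with 15 and, among 4 windows with 17, 2.5 to 3 Mb. Replicate 1 had 4, 5 and 4 peaks there and replicate 2 had 8, 10 and 13. The 2 emptiest windows lay side by side on the right arm, inside the stretch from 10 to 12.5 Mb in which no window reached 20 series-list peaks.

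Both ends of III were rich in peaks in the outermost 250 kb, which for the left end depended on the size chosen. In the outermost 20 kb the left end held 1 series-list peak and the right end 6, against 5 at the left end of I. In the outermost 100 kb they held 8 and 13, against 8 at the left end of I. The outermost 250 kb held 19 series-list peaks at the left end and 27 at the right end, against 6 to 16 at the 8 other autosomal ends. Replicate 1 had 11 and 8 peaks at the ends of III, against 1 to 6 at the others. Replicate 2 had 13 and 9, against 3 to 10, so that its right end of III was below the right end of V and level with the left end of IV. At the left end of III 10 of the 19 series-list peaks were found in both replicates, with a median score of 15.8. At the right end 5 of 27 were, 13 were found in neither, and the median score was 5.59. At the other right ends 0 of 7 were found in both on I, 2 of 10 on II, 2 of 6 on IV and 1 of 16 on V, with median scores of 8.02, 8.04, 25.8 and 8.57. The last window of III, 283731 bp long, held 32 series-list peaks, 112.8 per Mb, which was the highest density of any autosomal window (negative binomial tail, adjusted p = 0.077). With the outer 500 kb of every autosome left out, a setting chosen after these counts were seen, the ratio of III over the others was 1.18 in the series list (adjusted p = 0.024 in the negative binomial regression), 1.14 in replicate 1 and 1.20 in replicate 2.

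In the window at 7 to 7.5 Mb, a single run of closely set peaks held 18 of the window's 27 peaks in replicate 1. In the series list, 18 of its 44 peaks lay there. This run was picked out after the window counts were seen. It extended from 7405384 to 7437755, a span of 32.4 kb or 6.47% of the window. Replicate 2 had 0 peaks in it, and the scores of that list on III started at 50.2. Whether weaker signal lay there was not tested. The nearest replicate 2 peaks ended at 7387931 on the left and began at 7443984 on the right, which left a gap of 56.1 kb. Of the 18 series-list peaks of the run, 14 overlapped a replicate 1 peak and 4 were found in neither replicate.

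Peaks of the run were low in score. Replicate 1 scores there ran from 55.2 to 443.15 with a median of 97.5, at the 24.3rd median percentile of that list. Widths were 260 to 1489 bp (median 363.5 bp), gaps between neighbours were 4 to 4016 bp, and peaks covered 28.3% of the span. The strongest was 7416275 to 7417763, with the score 443.15 and 1489 bp, and the next was 7431476 to 7432785, with 273.65 and 1310 bp. In the series list the scores were 1.62 to 11.8 (median 4.10), at the 11.1th median percentile. Runs with gaps under 5 kb reached at most 10 peaks on the other autosomes in replicate 1, and the next longest run of III had 4. The same rule split the stretch into runs of 12 and 6 series-list peaks, and that list's longest autosomal run, with 15, was on II.

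Right after the run both replicates had a broad peak, 7444257 to 7448186 in replicate 1 and 7443984 to 7449140 in replicate 2, each with the score 3100, and the series list had 7444269 to 7448137 with the score 54.97. The highest series-list scores of the window were 214.72 at 7030286 to 7030888, 109.48 at 7140320 to 7140714 and 70.93 at 7142034 to 7142373, all found in both replicates, followed by the broad peak and by 7470377 to 7470710 with 39. Without this window the density ratio of III was 1.21 in the series list, 1.14 in replicate 1 and 1.23 in replicate 2 (negative binomial regression, adjusted p = 0.0068, 0.22 and 0.0068), and the surplus was 101.7, 27.2 and 72.1 peaks. What was left was 80.3% of the surplus in the series list, 58.4% in replicate 1 and 94.6% in replicate 2. With the first and the last 2 windows of III also left out, the other autosomes kept whole, it was 42.2%, 5.97% and 70.2%.

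**Figure D3:**
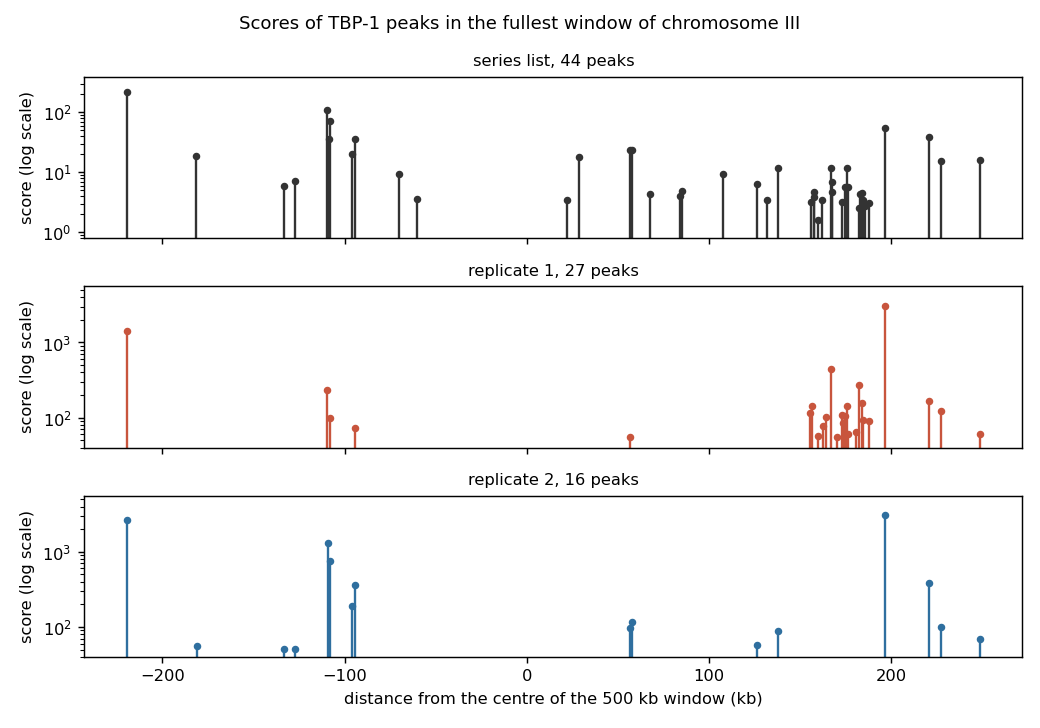
Each stem is 1 TBP-1 peak in the fullest window of chromosome III, at its distance in kb from the window's centre and with the authors' score on a log axis, in the series list, replicate 1 and replicate 2. A crowd of stems about 150 to 190 kb right of the centre appears in the series list and in replicate 1, and replicate 2 has none there.

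Other runs of low-scoring series-list peaks lay near the right end. From 13590591 to 13598901 there were 9 peaks in 8.31 kb, with scores of 2.89 to 8.81, of which 1 was found in replicate 1 and 1 in replicate 2. From 13775648 to 13783731, where the last peak of III ended, there were 6 peaks with scores of 2.52 to 23.9, of which 3 were found in replicate 1 and 0 in replicate 2. By contrast the 6 peaks from 13060994 to 13071759 had scores of 5.33 to 178.9 and were all found in replicate 2, with 3 found in replicate 1. The tightest 5 neighbours of the series list on III spanned 2261 bp, from 12367948 to 12370208, with scores of 1.81 to 20.2. A single replicate 2 peak, 12368558 to 12370496, overlay 3 of them, and 2 were in neither replicate.

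No difference in spacing, tested on a log scale, passed between III and the other autosomes. More peaks per length go with a shorter mean gap, so this does not show equal spacing. The median gap between neighbouring series-list peaks was 12828 bp on III and 13649 bp on the other autosomes, with 13.7% of the gaps on III under 1 kb and 11.6% to 17.5% on the others. The median gap was 26141.5 bp on III and 33011 bp on the others in replicate 1, and 21721 and 22882 bp in replicate 2. The fitted ratio of III over the others was 0.91 (95% interval 0.72 to 1.14), 0.78 (0.48 to 1.28) and 0.89 (0.72 to 1.11) in the series list, replicate 1 and replicate 2. None passed a linear model with errors clustered by 167 windows, with an adjusted p of 0.42 in each list. In runs with gaps under 5 kb lay 51.7% of the series-list peaks of III and 51.4% of those of the other autosomes. The widest gap of III was 165.5 kb in the series list (9126079 to 9291547), 357.5 kb in replicate 1 (9862371 to 10219888) and 231.9 kb in replicate 2 (9862486 to 10094375).

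No difference in width between peaks of III and of the other autosomes passed. The median width was 268 bp on III and 270 bp on the others in the series list, 502 and 514.5 bp in replicate 1, and 827 and 841 bp in replicate 2. The fitted width ratio was 0.98 (95% interval 0.92 to 1.03), 0.98 (0.89 to 1.08) and 0.99 (0.94 to 1.03) in that order, and none passed a linear model with errors clustered by 167 windows, with an adjusted p of 0.68 in each list. Peaks covered 1.69% of III in the series list, 1.18% in replicate 1 and 2.92% in replicate 2, the highest share of the 5 autosomes in each.

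On III 5 series-list peaks exceeded 3 kb, at 5353020 to 5358543 (5524 bp, score 45.96), 2496987 to 2501825 (4839 bp, 39.01), 7444269 to 7448137 (3869 bp, 54.97), 1299641 to 1303064 (3424 bp, 54.85) and 1017497 to 1020624 (3128 bp, 19.82). These scores lay under the 80th percentile of the series list. In replicate 1 the same places had scores of 2733.24 to 3100, above the 94th percentile of that list. The widest 4 were also replicate 2 peaks, with scores of 2165.57 to 3100, and the last had no replicate 2 peak. On the other autosomes 16 series-list peaks exceeded 3 kb.

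Scores of III peaks did not differ in rank beyond their error. The mean score percentile was 48.9 on III and 49.8 on the others in the series list, 46.6 and 49.3 in replicate 1, and 49.4 and 49.3 in replicate 2. The differences were -0.85 percentile points (95% interval -4.35 to 2.65), -2.65 (-8.52 to 3.22) and 0.08 (-3.80 to 3.97), and none passed a linear model with errors clustered by 167 windows, with an adjusted p of 0.95 in the series list and replicate 1 and of 0.97 in replicate 2. The weakest 20% of the list held 149 peaks of III, 22.9% of its peaks, against 19.4% of those of the other autosomes. The strongest 20% held 122 peaks of III, 18.8%, against 19.4%.

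The highest series-list scores of III reached 244.04, at 1424066 to 1424694 and 4413861 to 4414530, and 242.99 at 535043 to 535743. The next were 238.45 at 9861272 to 9862304, 238.18 at 1603838 to 1605221, 233.79 at 5080557 to 5081293 and 231.74 at 10624449 to 10624914. The 10 highest closed with 229.34 at 13224757 to 13225431, 228.59 at 4470505 to 4471181 and 227.3 at 8650081 to 8650623. All 10 were found in both replicates, at or above the 84.9th percentile of replicate 1 and the 89.5th of replicate 2. They were 466 to 1384 bp wide. Of the 10, 3 lay on the left arm, 5 in the centre and 2 on the right arm.

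**Figure D4:**
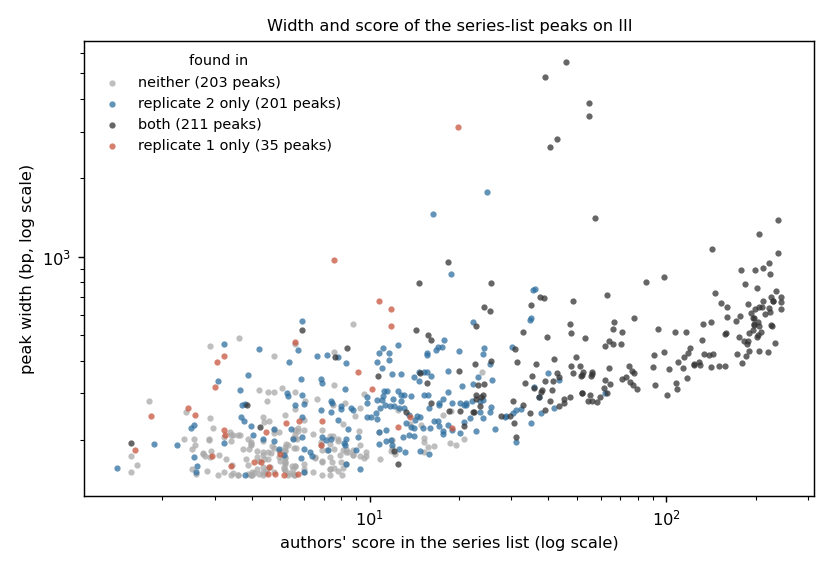
Each point is 1 of the 650 series-list peaks of chromosome III, with the authors' score on the x axis and the width in bp on the y axis, both on log scales, coloured by the replicate lists it was found in. Peaks found in both replicates fill the right of the plot, peaks found in neither fill the lower left, and the few peaks over 3 kb sit at middle scores.

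Shares of III peaks recovered in the replicate lists did not differ from those elsewhere on the autosomes beyond their error. Of 650 series-list peaks of III, 211 (32.5%, 95% Wilson interval 29.0 to 36.2) overlapped a peak of both replicates by at least 1 bp, against 34.2% of 2611 on the other autosomes. A further 201 (30.9%) overlapped a peak of replicate 2 only, 35 (5.38%) of replicate 1 only, and 203 (31.2%) of neither, against 30.5%, 5.67% and 29.6%. The odds of III over the others of being found in at least 1 replicate were 0.93 (95% interval 0.75 to 1.14), and in both 0.92 (0.73 to 1.17). None of 4 definitions passed a logistic model with errors clustered by 167 windows, with an adjusted p of 0.67 in each. Overlap describes the lists only, since the sources do not say if the series list drew on the same reads.

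Peaks of III found in both replicates were the strong ones. Their median score was 64.8, and their widths had a median of 425 bp. Those of replicate 2 only had 12.1 and 267 bp, those of replicate 1 only 4.99 and 231 bp, and those of neither 5.21 and 182 bp. In the strongest 20% 121 of 122 were found in both and 0 in neither, and in the weakest 20% 3 of 149 were found in both and 101 in neither. These shares, 99.2% in both at the top and 2.01% in both and 67.8% in neither at the bottom, stood beside 99.4%, 2.37% and 62.9% on the other autosomes. The share found in both went from 40.9% on the left arm to 31.8% in the centre and 25.2% on the right arm, along with a median score of 14.7, 11.9 and 8.81. These shares were not compared with the parts of the other autosomes. Of the 35 peaks of replicate 1 only, 14 lay in the run described above.

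**Figure D5:**
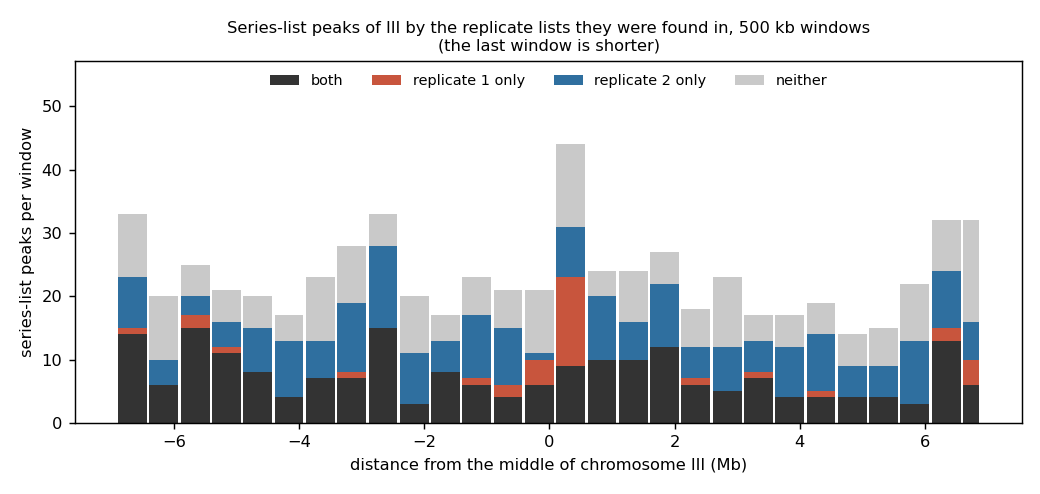
Stacked bars give series-list peaks in 500 kb windows of chromosome III, by distance from its middle in Mb, split by whether they overlapped a peak of both replicates, of 1 only or of neither. The tallest bar, with 44 peaks, is the one with the most peaks of replicate 1 only, 14.

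Between the replicates, 210 of 257 replicate 1 peaks of III (81.7%) overlapped a replicate 2 peak, against 84.5% on the other autosomes, and 198 of 403 replicate 2 peaks (49.1%) overlapped a replicate 1 peak, against 49.8%. The run held 18 of the 47 replicate 1 peaks of III without a partner (38.3%). Without it 87.9% of 239 were shared. Leaving out a run with 0 replicate 2 peaks can only raise this share. No run was left out on the other autosomes, so 87.9% is not comparable with their 84.5%. The strongest replicate 1 peaks of III with no replicate 2 partner were 1017280 to 1020692 (score 2733.24, 3413 bp), 2 peaks of the run, 3986984 to 3987723 (281.75) and 450356 to 451204 (170), and the last of these was absent from the series list. In the other direction they were 349229 to 350586 (1193.39), 424485 to 426497 (925.14), 8801179 to 8802700 (807.94), 6279785 to 6280789 (744.85) and 13446665 to 13448049 (557.34), all present in the series list.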

How the data were processed

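Chromatin of mixed-stage N2 embryos was profiled in 2 TBP-1 ChIP and 2 input samples. Alignment with BWA to ce10 comes per the submitters' processing notes. Peak positions are on WormBase WS220 and peaks were called by the authors with MACS (replicates) or MACS v2 (series list), per the file headers and source columns. The score of each peak is the authors' deposited value on a scale that is not given, so it was used as a rank within a list. Control library, thresholds and the origin of the series list: not given in the sources used here. The lowest replicate score was 50.04, while series-list scores on III started at 1.41. Whether peaks found in neither replicate list had weaker signal under that floor was not tested. The series list was taken as pooled, an assumption. Sequencing depth and caller settings change the number and width of peaks. Read depth is unknown, and intervals on shares cover counting of peaks only.

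A chromosome's length was the end of its last peak. Peaks were placed by their centre in windows of 500 kb. Counts per window were fitted by negative binomial regression with window length as offset. Width, score percentile and log2 of the gap plus 1 bp were compared by linear models, and overlap by logistic models, with errors clustered by window. P values were adjusted by Benjamini-Hochberg, with a threshold of 0.05. Windows and the density models count neighbouring windows as independent, which adjacent stretches of 1 chromosome need not be. The negative binomial density and window tests and the clustered linear and logistic models were checked on simulated data with independent windows. The interaction was simulated only with no difference between parts, and the Poisson-based alternatives were not checked. Members, windows and named peaks were chosen with earlier results of these data known. Named peaks were the 10 highest scores, the 5 widest, the 5 highest in the window at 7 to 7.5 Mb, the tightest 5 neighbours, and the 5 highest of each replicate without a partner. Python 3.11.15, numpy 2.4.6, pandas 2.3.3, scipy 1.17.1, statsmodels 0.14.6 and matplotlib 3.10.9 were used. Alternatives were other windows, models, peak subsets, references and overlap definitions.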

Additional observations from a re-analysis of the deposited data

How the results depend on the processing

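The density ratio of III over the other autosomes was counted as the same in 36 of 45 alternatives, by its direction and side of the threshold. This count includes each replicate taken alone, which counts as the same by construction and tests neither. In replicate 1 the ratio passed with windows of 250 kb (1.23), with neighbours closer than 500 bp merged (1.23), without IV (1.26) and for the weaker 50% of peaks (1.48). For the stronger 50% it was 0.98. The ratio lost its call for series-list peaks found in both replicates (1.18), with X added (1.16 in the series list, 1.12 in replicate 2) and, in replicate 2, without V (1.15). By part, 114 of 130 alternatives were counted as the same, by another rule for the ratios. A part ratio counted as the same if it lay inside the interval of the main setting. A change of direction could therefore count as the same. The replicate 1 right arm went from 0.82 (0.54 to 1.25) to 1.14 for the weaker 50%, which is inside that interval. This count by part also includes each replicate taken alone. For the stronger 50% the interaction passed (adjusted p of 0.0138 in the series list, 0.0190 in replicate 1 and 0.0099 in replicate 2), with ratios of 1.78 left and 0.87 right in the series list, 0.51 right in replicate 1, and 1.94 left and 0.77 right in replicate 2. For peaks found in both replicates they were 1.77 left and 0.75 right. For the weaker 50% they were 0.91 left and 1.63 right in the series list, 1.02 left and 1.35 right in replicate 2, and 1.56 left and 1.14 right in replicate 1. With a narrower centre, the middle part of 3 equal ones, the interaction passed in both replicates (adjusted p of 0.038 in each, negative binomial regression). At 250 kb, 1 of 333 autosomal windows passed in replicate 1 (0.3%), and it was on III. It lay inside the window at 7 to 7.5 Mb, which was named for its count. With a Poisson tail, 2 of the 5 windows that passed were on III in the series list, 2 of 5 in replicate 1 and 1 of 1 in replicate 2.

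Direction reversed, with no call, for the stronger 50% in replicate 1 (log2 width difference 0.022, score 3.22 percentile points, log2 gap difference 0.20). It also reversed without the peaks at 7 to 7.5 Mb for the series-list score (0.10 percentile points) and for overlap with replicate 2 (odds ratio 1.02), for centres within 100 bp (1.01 in both replicates, 1.06 in replicate 2) and, in the stronger 50%, for overlap with replicate 2 (1.29). The cause was not tested. Taking each replicate alone, which leaves the other out, the density ratio was 1.23 to 1.23, the left arm 1.41 to 1.60, the centre 1.27 to 1.31 and the right arm 0.82 to 1.02, windows past the threshold 0 to 0, log2 width difference -0.03 to -0.02, score difference -2.65 to 0.084, log2 gap difference -0.35 to -0.16 and the odds ratio of overlap 0.917 to 0.943. Settings that leave out 7 to 7.5 Mb or chromosome ends, and the weaker 50%, were chosen after seeing the data. No paired analysis was possible because the input libraries have no values here, so the shared replicate numbers pair nothing. Depth is unknown and limits what a missing peak means.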
